A study of Mus musculus with 2 samples.

Results

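A set of 10 genes of glutathione-dependent detoxification and antioxidant defence were followed through the single cells of mouse prostate tissue that carried a human androgen receptor transgene. They were the glutathione transferases Gsta3, Gsta4, Gstm1, Gstp1 and Gsto1, the glutathione synthesis gene Gclc, the glutathione peroxidases Gpx2 and Gpx3, the quinone reductase Nqo1 and the ascorbate synthesis gene Gulo. They made up 10 of the 19320 features of the count table, and all 10 had at least 1 molecule counted. The genes were chosen by name with earlier results of the same cells known, for their levels by cell class, by the level of the lineage marker EGFP and by cell barcode ending. Those levels are therefore given as descriptions.

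The tissue came from R26 mTmG/hAR:Osr1 Cre/+ mice on a mixed C57BL/6 and 129S1/SvImJ background. Recombination by Osr1-Cre switched on both the transgene (hARtg) and membrane-bound green fluorescent protein (mGFP) in cells of the Osr1 lineage, and cells outside that lineage carry both alleles unrecombined. According to the methods, 1 library was made of prostatic intraepithelial neoplasia (PIN) at an age of 6 months and 1 of prostatic adenocarcinoma (PCa) at 12 months, and prostate without the transgene was not analysed here. ARQ is read here as the feature of hARtg and EGFP as that of mGFP, going by name alone. Cells carried 1 of 2 barcode endings, called set 1 and set 2. The labels do not tie an ending to a tissue, so no cell was assigned to PIN or PCa, and the cell numbers that the study gives per tissue were not used to do so. Between the sets, tissue, animal, age and library cannot be told apart.

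Glutathione is a small thiol made from glutamate, cysteine and glycine, and the ligase of which Gclc encodes the catalytic subunit carries out the first, rate-limiting step. Glutathione transferases join it to reactive electrophiles, glutathione peroxidases spend it to reduce peroxides, and many of these genes are targets of the transcription factor NRF2, which is released from KEAP1 under oxidative or electrophilic stress. In the prostate, loss of the pi-class transferase is a well-known change in human cancer, and basal cells normally carry more of it than luminal cells.

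Set 1 held 6332 cells with a median of 17235 unique molecular identifiers (UMIs, tags that mark captured RNA molecules) and set 2 held 9410 cells with a median of 14824.5. The sets had 67 cell barcodes in common. After removal of 330 likely doublets, 15412 cells remained and fell into 18 clusters. Basal-like cells numbered 1694 in set 1 and 359 in set 2, luminal-like cells 1158 and 5998, fibroblast-like cells 198 and 360, and leukocyte-like cells 859 and 277. The leukocyte-like class was unlike in the sets: its cluster led by Pdcd1 and Tnfrsf9 held 701 cells in set 1 and 41 in set 2. Its cluster led by C1qa and C1qb held 92 and 232. The basal marker Krt5 stood at 1432 CPM (UMI counts of a gene after scaling all groups to the same total) in basal-like cells of set 1 against 24.9 in luminal-like ones, and at 489 against 11.6 CPM in set 2. Epithelial RNA was present in cells of other classes: in set 2, leukocyte-like cells held 10.7% of the luminal-like level of the keratin Krt8, 10.7% of that of EGFP and 10.5% of that of ARQ, and fibroblast-like cells held 24.5%, 26.1% and 25.3%. Non-basal epithelial clusters are named below by 2 of their leading genes. The luminal-like class held the Defa22/Tgm3, Wnt6/Wnt16, Mt4/Il13ra2, Tgm4/Ren1, Ube2c/Birc5 and Msmb/Wfdc3 clusters, Ltf/Msln cells had markers of proximal or urethral luminal cells, and Svs5/Svs3a, Krt6a/Clu and Cxcl17/Sbp cells took no class from their markers. The Svs5/Svs3a name describes set 2 alone: the summed level of 6 seminal vesicle genes in this cluster was 9362 CPM in set 2 and 7.97 CPM in set 1, where its 264 cells held no UMI of Svs5 or Svs3a. Some held very different cells in the 2 sets, so every value is given per set.

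Values in parentheses after a CPM are exact Poisson 95% intervals, those after a log2 ratio come from the conditional binomial distribution of both UMI sums, and all cover counting error only. With 1 library on each side there was no replicate check and no test. A gene was called past 2-fold at a log2 ratio of at least 1 in size when its mean over both sides was at least 10 CPM, and counts of members are set beside the share of all genes that passed the same rule. Levels of different genes are not compared with each other, since 3′ UMI counts also depend on how each transcript is captured. Gstp1 has the near-identical neighbour Gstp2, and Gsta3 and Gstm1 belong to clustered families, so counts of these genes are less certain than those of the others.

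**Figure D1:**
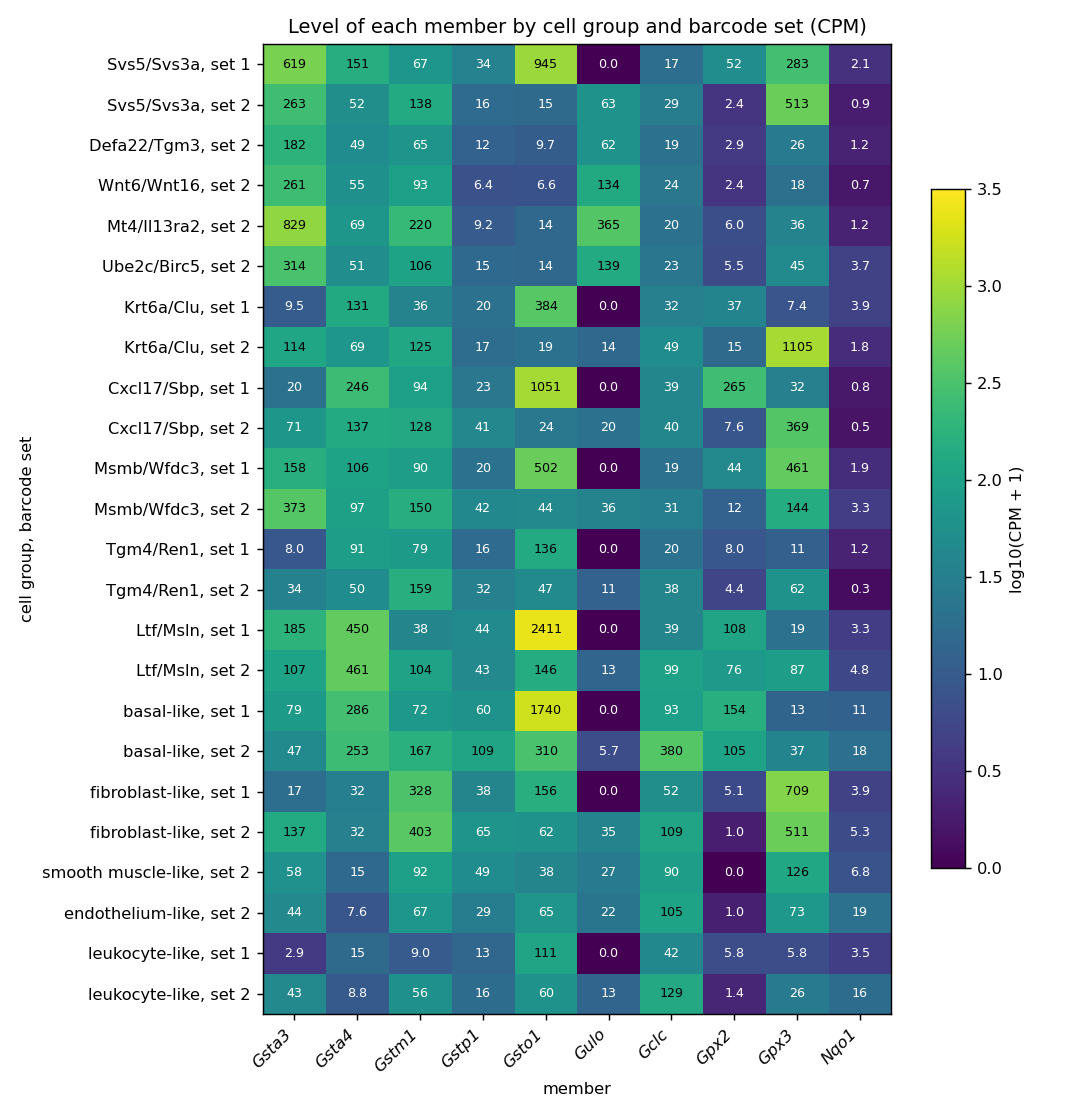
Level of the 10 members (columns) in the 24 groups of at least 50 cells (rows, class or epithelial subgroup by set). Colour gives log10(CPM + 1) and the printed numbers are CPM. Gulo reads 0 in every group of set 1 and 365 CPM in Mt4/Il13ra2 cells of set 2, and Gsto1 is highest in Ltf/Msln and basal-like cells of set 1.

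Gsta3 (chr1:21240565-21265575, GRCm38.p6, the NCBI release of the mm10 build used for all positions here) encodes an alpha-class transferase that also acts on steroid intermediates. The stretch around its start in RefSeq, from 250 bases before to 50 after, is shown because the gene was higher with EGFP in luminal-like cells of both sets and because the window holds a match to the core of the antioxidant response element, the DNA motif bound by NRF2. The match is in capitals (window chr1:21240335-21240634, plus strand, 5′ to 3′). Its first base lies 121 bases before the start that the window was built on, which is not the first base of the gene range above.
Gsta3 promoter: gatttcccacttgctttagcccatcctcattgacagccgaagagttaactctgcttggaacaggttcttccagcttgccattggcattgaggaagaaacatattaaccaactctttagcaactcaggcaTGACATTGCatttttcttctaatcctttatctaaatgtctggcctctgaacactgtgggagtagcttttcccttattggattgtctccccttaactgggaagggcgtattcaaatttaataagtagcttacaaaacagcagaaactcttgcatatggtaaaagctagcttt

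A pair of motifs was searched on both strands of the 8 promoter windows found for 7 of the members. The antioxidant response element core TGACNNNGC (GCNNNGTCA on the other strand) matched in 1 of the 8 windows, that of Gsta3, and in 12.4% of all 32851 RefSeq windows of the same length. The androgen receptor element is built from hexamers, and its arm AGAACA was searched too, which reads as TGTTCT on the other strand. That hexamer matched in 2 of the 8, those of Gstm1 and Gpx3, and in 19.0% of all windows. A match describes the letters and is not a binding site. No window of a member held both motifs, so matches of the 2 did not overlap there.

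In luminal-like cells of set 1, Gsta3 stood at 277 CPM in EGFP-high and 37.2 CPM in EGFP-low cells, a log2 ratio of 2.90 (2.76 to 3.03). In set 2 it stood at 393 against 15.8 CPM, a log2 ratio of 4.64 (4.25 to 5.05). EGFP-high cells were those above the 95th percentile of leukocyte-like cells of their set, and EGFP-low cells those at or below the leukocyte-like median. The limits differed between the sets: EGFP-high began above 3.37 EGFP UMIs per 10000 in set 1 and above 37.7 in set 2, and EGFP-low meant 0 in set 1 and up to 3.28 in set 2. Ratios of EGFP-high cells between the sets therefore rest on unlike limits. The groups held 183 and 588 luminal-like cells in set 1, and 5677 and 148 in set 2. Their makeup differed: 142 of the 148 EGFP-low cells of set 2 (95.9%) were Tgm4/Ren1 cells, while EGFP-high cells of that set were mostly Defa22/Tgm3 (30.9%), Wnt6/Wnt16 (27.0%) and Mt4/Il13ra2 cells (26.6%). In set 1, Msmb/Wfdc3 cells made up 61.2% of the EGFP-high and 27.7% of the EGFP-low group. Ratios within single subgroups are given for that reason.

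The ratio of Gsta3 kept its direction within single subgroups. It was past 2-fold in all 4 subgroup and set combinations that had at least 50 cells on each side. Krt6a/Clu cells of set 1 held 65.2 CPM at high and 6.34 CPM at low EGFP, a log2 ratio of 3.36. Tgm4/Ren1 cells of set 2 held 72.4 against 8.95 CPM, a log2 ratio of 3.02. Both are subgroups with little Gsta3 overall. Leukocyte-like cells held 2.89 CPM in set 1 and 42.8 CPM in set 2, and the part of free epithelial RNA in these 2 ratios was not tested. For Ltf/Msln cells of set 1 the levels were 413 and 93.7 CPM, a log2 ratio of 2.14, and for Msmb/Wfdc3 cells of set 1 they were 303 and 95.8 CPM, a log2 ratio of 1.66. Among all genes, the share past 2-fold higher was 1.26% in Krt6a/Clu, 2.84% in Tgm4/Ren1, 1.73% in Ltf/Msln and 2.5% in Msmb/Wfdc3 cells. The shares past 2-fold lower in the same order were 0.168%, 0.645%, 2.53% and 0.999%.

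Over finer steps of EGFP in luminal-like cells of set 2, Gsta3 increased at every step. It stood at 8.62 CPM in cells with under 1 EGFP UMI per 10000, at 213 CPM (201 to 226) between 20 and 50, and at 604 CPM (589 to 620) at 150 or more. The rise was also present inside each main subgroup. In Defa22/Tgm3 cells the level went from 95.3 CPM (78.7 to 114) between 20 and 50 EGFP UMIs per 10000 to 302 CPM (283 to 321) at 150 or more. In Mt4/Il13ra2 cells it went from 682 CPM (629 to 740) to 952 CPM (923 to 982) over the same range. The lowest of these Mt4/Il13ra2 values lay above the highest of the Defa22/Tgm3 values, so the 2 subgroups did not overlap at any EGFP level.

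**Figure D2:**
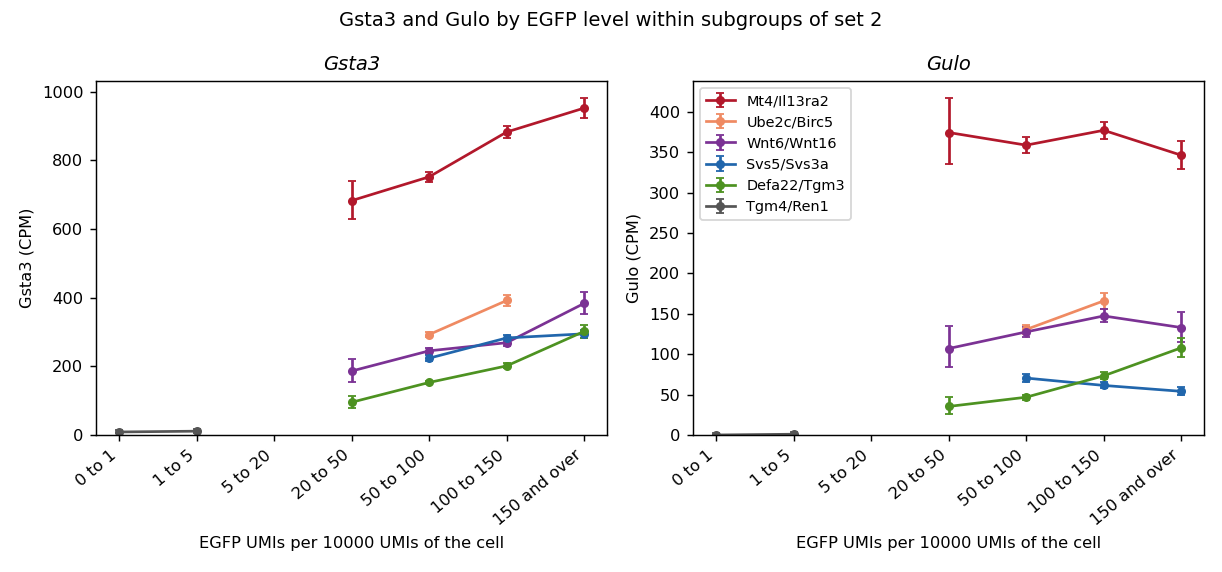
Gsta3 and Gulo level (CPM, with exact Poisson 95% intervals) against EGFP UMIs per 10000 UMIs of the cell, within epithelial subgroups of set 2. Gsta3 rises from left to right in Defa22/Tgm3, Wnt6/Wnt16 and Mt4/Il13ra2 cells, while Gulo in Mt4/Il13ra2 cells stays between 346 and 377 CPM.

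Among the 24 groups of at least 50 cells, Gsta3 was highest in Mt4/Il13ra2 cells of set 2 at 829 CPM (819 to 839), followed by Svs5/Svs3a cells of set 1 at 619 CPM (603 to 636). Msmb/Wfdc3 cells of set 2 came next at 373 CPM (339 to 409). The 25 Mt4/Il13ra2 cells of set 1, too few for that limit, held 574 CPM (530 to 621). The following groups, Ube2c/Birc5 cells of set 2 at 314 CPM (307 to 321), Svs5/Svs3a cells of set 2 at 263 CPM (258 to 268) and Wnt6/Wnt16 cells of set 2 at 261 CPM (254 to 267), lay close together, and the last 2 did not differ beyond counting error. The low end was formed by Krt6a/Clu cells of set 1 at 9.48 CPM (8.51 to 10.5), Tgm4/Ren1 cells of set 1 at 8.03 CPM (6.75 to 9.49) and leukocyte-like cells of set 1 at 2.89 CPM (1.62 to 4.76). Leukocyte-like cells of set 2 held 42.8 CPM, which was 11.4% of the luminal-like level and close to the share seen for Krt8 and EGFP in the same cells. After each cell was thinned to 3000 UMIs, 14.5% (12.5 to 16.7) of luminal-like cells of set 1 and 46.9% (45.6 to 48.1) of those of set 2 had a Gsta3 UMI, against 0.644% and 4.86% of leukocyte-like cells. Unthinned, the luminal-like shares were 37.9% and 73.2%, at median depths of 28662 and 16314.5 UMIs, and the leukocyte-like ones 1.51% and 9.39%, at 3819 and 7024 UMIs.

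Gulo (chr14:65986786-66009254) encodes the enzyme of the last step of ascorbate synthesis, active in mice and lost in humans, and it is known mainly from liver. No Gulo UMI was counted in any cell of set 1. Over all kept cells of that set a count of 0 allows up to 0.0230 CPM. In set 2 the gene was present in every group with at least 50 cells, with levels from 5.73 to 365 CPM. Mt4/Il13ra2 cells were highest at 365 CPM (358 to 372). They were followed by Ube2c/Birc5 cells at 139 CPM (134 to 143) and Wnt6/Wnt16 cells at 134 CPM (130 to 139), whose intervals overlapped. Svs5/Svs3a cells at 62.7 CPM (60.2 to 65.3) and Defa22/Tgm3 cells at 61.6 CPM (59.1 to 64.1) were likewise indistinguishable. The lowest luminal-like subgroup was Tgm4/Ren1 at 11.4 CPM (9.03 to 14.3). Leukocyte-like cells held 13.0 CPM (8.66 to 18.8), which was 8.01% of the luminal-like level, and fibroblast-like cells 35.5 CPM (27.9 to 44.5), 21.8% of it. Values in these classes and in Tgm4/Ren1 and basal-like cells are thus no higher than the share of Krt8 and EGFP found outside the epithelium.

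With each cell thinned to 3000 UMIs, a Gulo UMI was found in 29.97% (28.8 to 31.2) of luminal-like cells of set 2 and in 60.1% of its Mt4/Il13ra2 cells. Leukocyte-like cells gave 2.43%. In set 1 the share was 0 of 1146 luminal-like cells, which allows up to 0.262% of cells with a UMI at that depth. Unthinned shares in set 2 were 59.0%, 89.8% and 5.42%. In luminal-like cells of set 2 the level was 170 CPM at high and 1.17 CPM at low EGFP, a log2 ratio of 7.18 (5.82 to 9.06). Within Tgm4/Ren1 cells it was 31.8 against 0.597 CPM, a log2 ratio of 5.74. Leukocyte-like cells of set 2 held 13.0 CPM and fibroblast-like cells 35.5 CPM, and the part of free epithelial RNA in this ratio was not tested. Inside the Mt4/Il13ra2 subgroup, by contrast, Gulo did not follow EGFP: it was 374 CPM (335 to 417) between 20 and 50 EGFP UMIs per 10000 and 346 CPM (329 to 364) at 150 or more. Defa22/Tgm3 cells went from 35.3 CPM (25.6 to 47.6) to 108 CPM (97.0 to 120) over that range.

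Gsto1 (chr19:47854973-47864790) encodes an omega-class transferase, which reduces dehydroascorbate and methylated arsenic species. Of the members present in both sets, it stood furthest apart between them in EGFP-high luminal-like cells. Its promoter window is shown for that reason, and it holds neither motif (chr19:47854723-47855022, plus strand).
Gsto1 promoter: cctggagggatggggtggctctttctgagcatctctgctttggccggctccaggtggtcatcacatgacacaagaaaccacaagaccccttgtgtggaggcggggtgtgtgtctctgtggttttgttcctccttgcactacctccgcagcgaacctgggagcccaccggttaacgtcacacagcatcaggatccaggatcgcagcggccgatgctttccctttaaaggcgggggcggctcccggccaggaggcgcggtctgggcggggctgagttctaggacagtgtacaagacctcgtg

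In EGFP-high luminal-like cells Gsto1 stood at 666 CPM in set 1 and 11.5 CPM in set 2, a log2 ratio of -5.85 (-5.94 to -5.77). Basal-like cells held 1740 CPM (1723 to 1757) in set 1 and 310 CPM (289 to 332) in set 2, a log2 ratio of -2.49 (-2.59 to -2.39). Ltf/Msln cells held 2411 CPM (2378 to 2445) and 146 CPM (131 to 162). Lower levels in set 2 were seen past 2-fold in all 8 groups that both sets held in number, with log2 ratios from -5.97 to -1.32. Several of these groups held unlike cells in the sets. The summed basal markers in set 1 and set 2 were 771 and 14.4 CPM in Svs5/Svs3a and 1462 and 62.6 in Krt6a/Clu cells. They were 1662 and 114 in Cxcl17/Sbp, 4681 and 1319 in Ltf/Msln, 389 and 188 in Msmb/Wfdc3, and 220 and 377 CPM in Tgm4/Ren1 cells. The part of this makeup in the Gsto1 ratios was not tested. The shares of all genes past 2-fold higher and lower in set 2 were 8.18% and 11.8% in Svs5/Svs3a, 9.36% and 12.4% in Krt6a/Clu, and 5.55% and 14.1% in Cxcl17/Sbp cells. They were 2.94% and 7.05% in Tgm4/Ren1, 4.93% and 4.77% in Msmb/Wfdc3, and 4.39% and 3.52% in Ltf/Msln cells. Basal-like cells gave 3.01% and 4.7%, and fibroblast-like cells 6.06% and 5.92%. The smallest of these differences was in fibroblast-like cells, at 156 CPM (138 to 176) in set 1 and 62.3 CPM (52.1 to 74.0) in set 2. Leukocyte-like cells held 111 and 60.02 CPM, which in set 2 was 454% of the luminal-like level, so these cells give no measure of free epithelial RNA for this gene. Thinned to 3000 UMIs, 91.4% (89.9 to 92.7) of basal-like cells of set 1 and 45.8% (40.4 to 51.3) of those of set 2 had a Gsto1 UMI, against 18.8% and 13.8% of leukocyte-like cells. Unthinned, the basal-like shares were 98.5% and 64.6%, at median depths of 10836 and 5477 UMIs.

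By EGFP, the pooled luminal-like ratios of Gsto1 differed in sign between the sets. Luminal-like cells of set 1 held 666 CPM at high and 225 CPM at low EGFP, a log2 ratio of 1.57 (1.504 to 1.63). Those of set 2 held 11.5 against 55.3 CPM, a log2 ratio of -2.26 (-2.48 to -2.04). Within Tgm4/Ren1 cells of set 2 the values were 44.8 and 54.6 CPM, a log2 ratio of -0.29 (-0.69 to 0.11), so the pooled difference of set 2 was not present within the subgroup that made up nearly all its EGFP-low cells. In set 1, Msmb/Wfdc3 cells, the main part of the EGFP-high group, held 740 against 415 CPM, a log2 ratio of 0.83 (0.75 to 0.91). Outside the luminal-like class, the log2 ratio was 0.24 in Ltf/Msln cells and 1.25 in Krt6a/Clu cells, where the levels were 766 and 322 CPM. Past 2-fold was thus 1 of the 4.

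**Figure D3:**
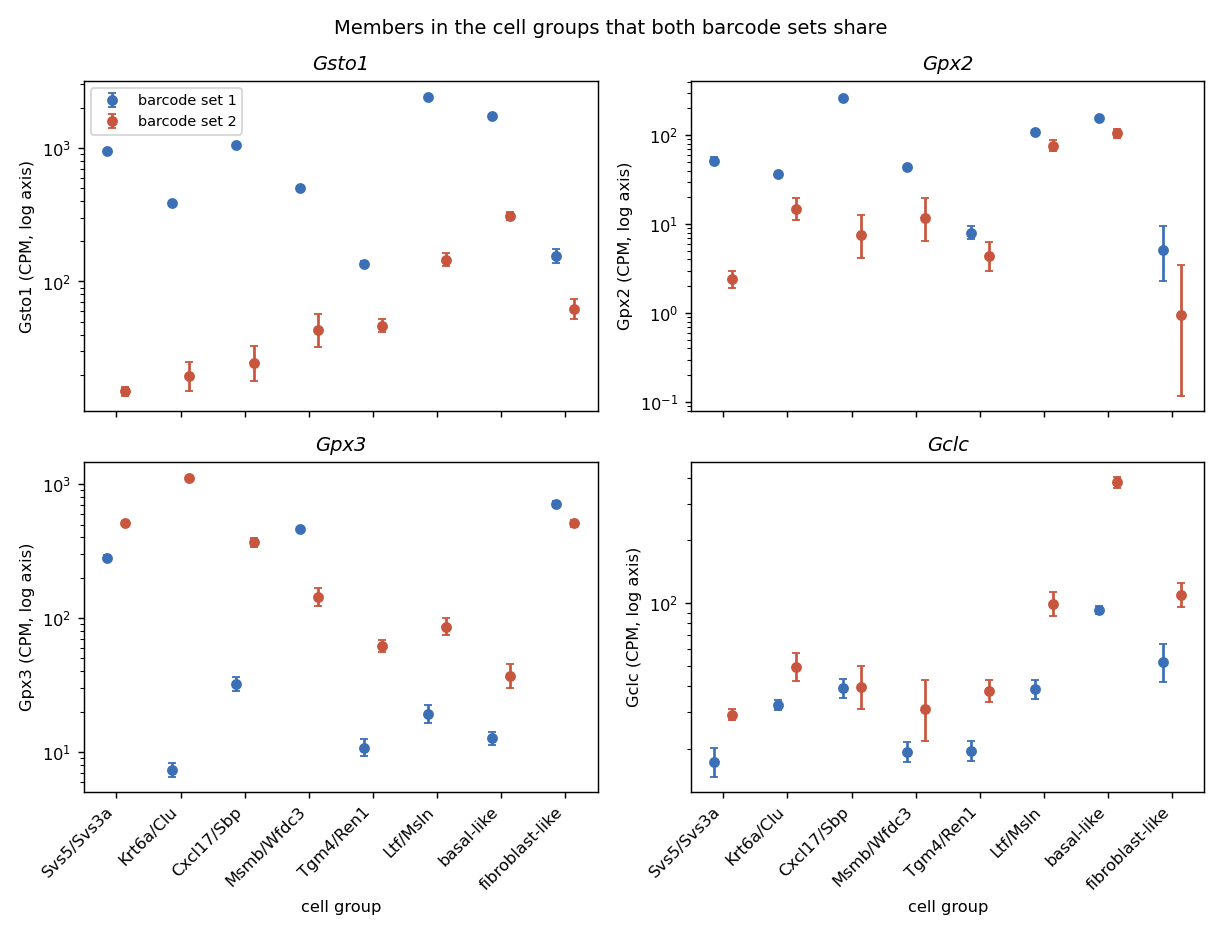
Levels of Gsto1, Gpx2, Gpx3 and Gclc (CPM on a log axis, with exact Poisson 95% intervals) in the 8 groups with at least 50 cells in both sets. Gsto1 is lower in set 2 in all 8, Gclc stands furthest apart in basal-like cells (92.8 and 380 CPM), and Gpx3 in Krt6a/Clu cells (7.39 and 1105 CPM), whose seminal vesicle marker sum also differed (0.440 and 2061 CPM).

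Gsta4 (chr9:78191966-78209349) encodes an alpha-class enzyme with high activity towards 4-hydroxynonenal, a product of lipid peroxidation. It was highest in Ltf/Msln cells, at 450 CPM (436 to 465) in set 1 and 461 CPM (434 to 490) in set 2, which did not differ beyond counting error. Basal-like cells followed at 286 CPM (279 to 293) and 253 CPM (234 to 273). Luminal-like cells had less, 99.7 CPM in set 1 and 56.3 CPM in set 2, and the log2 ratio to basal-like cells was -1.52 (-1.58 to -1.46) and -2.17 (-2.29 to -2.05). With EGFP it changed little in luminal-like cells, with a log2 ratio of 0.36 in set 1 and of 0.12 in set 2. In EGFP-high luminal-like cells it was lower in set 2 by a log2 ratio of -1.07 (-1.17 to -0.96), at the edge of the 2-fold rule.

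Gstm1 (chr3:108012250-108017973), a mu-class transferase, was highest in fibroblast-like cells, with 328 CPM (302 to 356) in set 1 and 403 CPM (376 to 431) in set 2. The log2 ratio of fibroblast-like to luminal-like cells was 1.99 (1.86 to 2.12) and 1.72 (1.62 to 1.82). The highest epithelial level was 220 CPM (214 to 225) in Mt4/Il13ra2 cells of set 2. Set 2 was above set 1 in all 8 shared groups and past 2-fold in 5 of them, with log2 ratios from 0.30 to 1.79. By EGFP the log2 ratio in luminal-like cells was -0.29 in set 1 and -0.44 in set 2. Luminal-like and basal-like cells had similar levels, with log2 ratios of 0.19 and -0.45.

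Gstp1 (chr19:4035411-4037912) encodes the pi-class transferase. It was lower in luminal-like than in basal-like cells in both sets, at 18.7 against 59.9 CPM in set 1, a log2 ratio of -1.68 (-1.81 to -1.54), and at 12.04 against 109 CPM in set 2, a log2 ratio of -3.17 (-3.36 to -2.98). The lowest of the 24 groups was Wnt6/Wnt16 of set 2 at 6.44 CPM (5.47 to 7.54), below the 16.3 CPM (11.3 to 22.6) of leukocyte-like cells. By EGFP, the pooled luminal-like ratios of Gstp1 differed in sign between the sets. EGFP-high luminal-like cells of set 1 held 33.5 CPM against 14.2 at low EGFP, a log2 ratio of 1.24 (0.97 to 1.51) that came to 0.70 without integration of the sets, and those of set 2 held 11.1 against 32.8 CPM, a log2 ratio of -1.56 (-1.84 to -1.27). The EGFP-low cells of set 2 were nearly all of the Tgm4/Ren1 subgroup, which as a whole held 32.4 CPM. Within single subgroups, all 4 ratios were above 0. Within Tgm4/Ren1 cells of set 2 the levels were 37.7 and 32.8 CPM, a log2 ratio of 0.20 (-0.27 to 0.66), so the pooled difference of set 2 was not present there. In set 1 the log2 ratio was 1.80 (1.36 to 2.25) in Msmb/Wfdc3, 0.79 in Ltf/Msln and 0.46 in Krt6a/Clu cells, past 2-fold in the first alone.

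Gclc (chr9:77754535-77794489) was higher in basal-like than in luminal-like cells. Fibroblast-like cells held 51.8 CPM in set 1 and 109 CPM in set 2. Basal-like cells of set 1 held 92.8 CPM (88.8 to 96.9) and those of set 2 held 380 CPM (357 to 404), while luminal-like cells held 19.5 and 21.9 CPM. The log2 ratio of luminal-like to basal-like cells was -2.25 (-2.37 to -2.13) and -4.12 (-4.22 to -4.01). Between the sets, the basal-like log2 ratio was 2.03 (1.92 to 2.14) and that of EGFP-high luminal-like cells 0.20 (-0.07 to 0.47). The basal-like class was unlike in the sets. Its marker sums in set 1 and set 2 were 13340 and 9554 CPM for basal and 3619 and 5379 for luminal markers. They were 3047 and 707 for proximal or urethral luminal and 2522 and 1183 CPM for fibroblast markers. The part of this in the basal-like ratio was not tested. Leukocyte-like cells held 129 CPM (114 to 145) in set 2 against 42.0 CPM (36.6 to 47.9) in set 1. That class was made up of unlike clusters in the sets, and the part of this in the difference was not tested. All 8 shared groups were above 0 on the log2 scale and 3 were past 2-fold. Thinned to 3000 UMIs, 21.4% of basal-like cells of set 1 and 42.6% of those of set 2 had a UMI, against 13.0% and 24.3% of leukocyte-like cells. No pooled ratio of Gclc by EGFP was past 2-fold. In luminal-like cells the log2 ratio was -0.05 (-0.37 to 0.25) in set 1 and -0.71 (-0.98 to -0.43) in set 2. Within Tgm4/Ren1 cells of set 2 it was 0.12 (-0.34 to 0.58). In basal-like cells it was -0.41 (-0.55 to -0.26) in set 1 and 0.01 (-0.21 to 0.23) in set 2.

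Gpx2 (chr12:76792335-76795554), an epithelial glutathione peroxidase best known from the gut, was highest in Cxcl17/Sbp cells of set 1 at 265 CPM (254 to 275). Cxcl17/Sbp cells of set 2 held 7.60 CPM. That cluster held unlike cells in set 1 and set 2, with proximal or urethral luminal marker sums of 3930 and 368 CPM. Its basal marker sums were 1662 and 114 CPM, and the part of these in its Gpx2 values was not tested. Basal-like cells held 154 CPM (149 to 159) in set 1 and 105 CPM (92.7 to 118) in set 2, and Ltf/Msln cells 108 and 76.5 CPM. Luminal-like cells held 27.7 CPM in set 1 and 4.24 CPM in set 2, and the log2 ratio to basal-like cells was -2.47 (-2.58 to -2.37) and -4.63 (-4.84 to -4.41). In EGFP-high luminal-like cells the level was 37.9 CPM in set 1 and 4.20 CPM in set 2, a log2 ratio of -3.18 (-3.40 to -2.95). Apart from Msmb/Wfdc3 cells at 11.7 CPM (6.41 to 19.7), the luminal-like subgroups of set 2 held between 2.35 and 6.04 CPM, near the 1.40 CPM (0.288 to 4.08) of leukocyte-like cells of that set.

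Gpx3 (chr11:54902854-54910387) encodes the secreted plasma glutathione peroxidase. Its promoter window is shown because the gene was, beside Gsta3, the only member past 2-fold with EGFP in all 4 subgroup comparisons, and because it holds the TGTTCT form of the androgen receptor hexamer, in capitals, with its first base 133 bases before the start (chr11:54902604-54902903, plus strand).
Gpx3 promoter: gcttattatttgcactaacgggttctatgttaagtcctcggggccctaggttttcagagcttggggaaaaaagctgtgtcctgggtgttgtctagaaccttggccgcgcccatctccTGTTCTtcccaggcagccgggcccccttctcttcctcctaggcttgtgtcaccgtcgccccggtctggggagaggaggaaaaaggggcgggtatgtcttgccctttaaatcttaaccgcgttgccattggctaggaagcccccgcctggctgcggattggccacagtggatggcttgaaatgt

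In luminal-like cells of set 1 Gpx3 stood at 701 CPM at high and 115 CPM at low EGFP, a log2 ratio of 2.61 (2.53 to 2.69). In set 2 the levels were 33.2 and 35.7 CPM, a log2 ratio of -0.10, which became 1.46 when cells were split on the transgene feature in place of EGFP. Within subgroups the ratio was nevertheless past 2-fold in all 4 combinations. Tgm4/Ren1 cells of set 2 held 147 CPM against 35.5 CPM, a log2 ratio of 2.05. In set 1 the log2 ratio was 4.36 in Krt6a/Clu cells, where the levels were 64.1 and 3.11 CPM, and 1.58 in Ltf/Msln cells, where they were 27.1 and 9.08 CPM. For Msmb/Wfdc3 cells it was 1.45, from 922 against 337 CPM. The EGFP-high Defa22/Tgm3, Wnt6/Wnt16 and Mt4/Il13ra2 subgroups of set 2 had little Gpx3, between 18.3 and 36.3 CPM. Krt6a/Clu cells, by contrast, held 1105 CPM (1069 to 1141) in set 2 and 7.39 CPM (6.54 to 8.33) in set 1, and Svs5/Svs3a cells held 513 and 283 CPM. The Krt6a/Clu cluster held unlike cells in the sets, with a seminal vesicle sum of 2061 CPM in set 2 and 0.440 CPM in set 1 and a basal marker sum of 62.6 and 1462 CPM, and the part of these in its Gpx3 values was not tested. Fibroblast-like cells had 709 CPM (671 to 750) in set 1 and 511 CPM (480 to 542) in set 2, which lay above luminal-like cells by log2 ratios of 1.54 and 3.92.

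Nqo1 (chr8:107388225-107403205), which encodes the NAD(P)H quinone reductase and is a classical NRF2 target, was low in most groups. Luminal-like cells held 1.54 CPM (1.17 to 1.99) in set 1 and 1.55 CPM (1.34 to 1.78) in set 2. Basal-like cells had more, with 11.4 CPM (10.0 to 12.9) and 18.0 CPM (13.2 to 23.9), a log2 ratio of set 2 to set 1 of 0.66 (0.17 to 1.11). Endothelial-like cells of set 2 at 19.2 CPM (13.6 to 26.4) and leukocyte-like cells of set 2 at 16.3 CPM (11.3 to 22.6) did not differ from the basal-like cells of that set beyond counting error. No luminal-like comparison of Nqo1 met the minimum of 10 CPM.

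Counted over the members, the luminal-like comparison by EGFP had 4 past 2-fold higher and 0 lower in set 1, among 8 with at least 10 CPM. There 3.33% of all genes were past 2-fold higher and 1.49% lower. In set 2 there were 2 higher and 2 lower of 8, beside 11.9% and 15.7% of all genes. Nothing is read from these counts or from those that follow, since the members were picked with their levels by class, EGFP and barcode ending known. Luminal-like against basal-like cells gave 1 member higher and 5 lower of 8 in set 1, where 24.2% of all genes were higher and 13.3% lower. In set 2 it gave 2 higher and 5 lower of 9, where the shares were 24.4% and 19.2%. The same 5 members, Gsta4, Gstp1, Gsto1, Gclc and Gpx2, were lower in luminal-like cells of both sets. Between the sets, EGFP-high luminal-like cells had Gulo higher in set 2 by at least 373-fold, against a floor of 3 UMIs over the cells of set 1, and 5 members lower, among 9, with 9.94% of all genes higher and 15.3% lower.

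**Figure D4:**
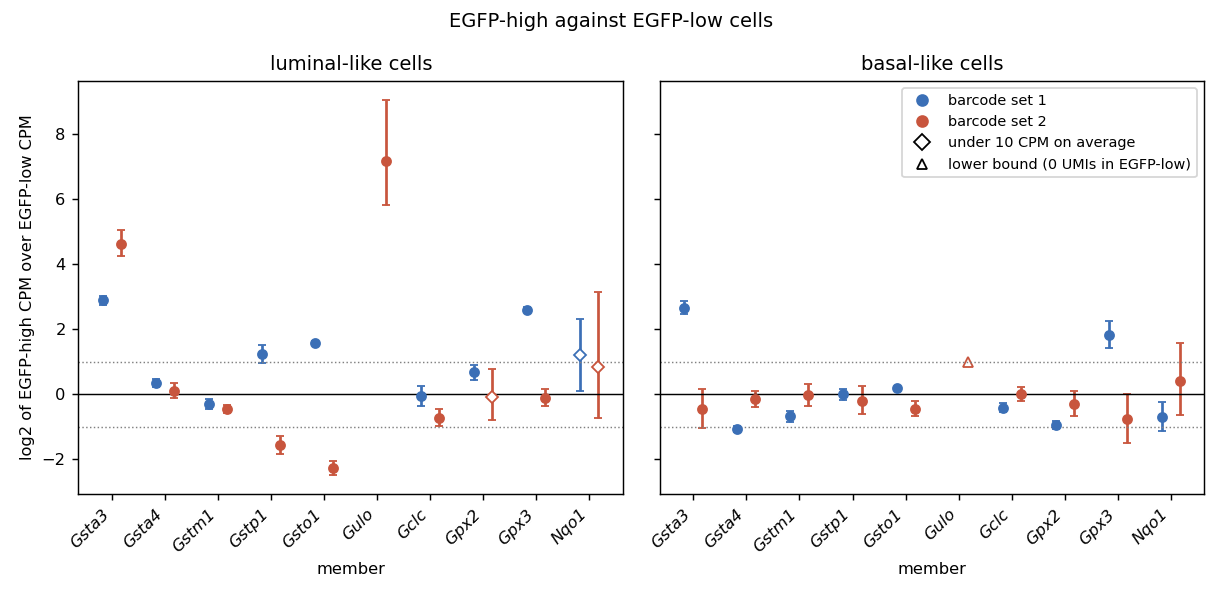
Log2 ratio of EGFP-high to EGFP-low cells for each member in luminal-like (left) and basal-like cells (right), both sets, with 95% counting intervals. Open diamonds mark ratios whose mean was under 10 CPM, and open triangles mark lower bounds where EGFP-low cells held no UMI. Gsta3 lies above 0 in luminal-like cells of both sets (2.90 and 4.64) and in basal-like cells of set 1 (2.66) but not of set 2 (-0.44).

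Basal-like cells of set 1 repeated part of the luminal-like pattern. Gsta3 stood at 169 CPM at high and 26.7 CPM at low EGFP, a log2 ratio of 2.66 (2.47 to 2.86), and Gpx3 at 24.9 against 7.03 CPM, a log2 ratio of 1.82 (1.42 to 2.24). Gsta4 was lower, at 167 against 350 CPM, a log2 ratio of -1.07 (-1.16 to -0.98), and Gpx2, at 95.8 against 184 CPM, fell just short of 2-fold with -0.94. Gsto1 was nearly level at 1905 and 1662 CPM, a log2 ratio of 0.20. This made 2 members higher and 1 lower of 9, beside 2.24% and 2.21% of all genes. The summed level of the basal markers was 8759 CPM in the EGFP-high and 16003 CPM in the EGFP-low cells, and its part in these ratios was not tested. In set 2, 0 of 9 members were past 2-fold, beside 3.51% of all genes higher and 2.2% lower. Gsta3 there stood at 45.2 and 61.2 CPM, a log2 ratio of -0.44 (-1.02 to 0.16). The set 2 groups held 159 and 99 cells. The 2 splits were unlike, since EGFP itself stood at 161 CPM in the EGFP-low basal-like cells of set 2 and at 0 in those of set 1.

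Basal-like cells differed between the sets in the wider glutathione and NRF2 pathway as well. Their marker sums also differed, as given above for Gclc, and the part of this in the values below was not tested. Of 83 further genes of these pathways in the table, 55 had at least 10 CPM, and 12 were past 2-fold higher in set 2 and 0 lower, while 3.01% of all genes were higher and 4.7% lower. All pathway lists used here were chosen with earlier results of the same cells known, so counts and medians over them are descriptions. The median log2 ratio was 0.84 for the 12 genes of glutathione synthesis, recycling and breakdown at that level, 0.23 for 13 NRF2 regulators and targets, and -0.01 for all genes. A rise was not particular to basal-like cells. The median of the synthesis list was 0.91 in Krt6a/Clu, 0.69 in Ltf/Msln, 0.39 in fibroblast-like, 0.31 in Tgm4/Ren1 and 0.27 in Msmb/Wfdc3 cells. It was -0.14 in Svs5/Svs3a and -0.21 in Cxcl17/Sbp cells. In Krt6a/Clu cells 17 of 60 pathway genes were higher and 6 lower, beside 9.36% and 12.4% of all genes. In Svs5/Svs3a cells 10 of 59 were higher and 10 lower, beside 8.18% and 11.8%. The following genes, given for basal-like cells in set 2 against set 1, were chosen after their values were seen. Hmox1, the haem oxygenase, stood at 1772 against 214 CPM, a log2 ratio of 3.05. Slc7a11, the cystine importer that feeds glutathione synthesis, stood at 587 against 86.1 CPM, a log2 ratio of 2.77. Sulfiredoxin Srxn1 was at 368 against 91.1 CPM, a log2 ratio of 2.01, and Gclm, the modifier subunit partner of Gclc, at 1137 against 440 CPM, a log2 ratio of 1.37. The thioredoxin reductase Txnrd1 followed at 866 against 395 CPM, a log2 ratio of 1.13. The transcripts of the regulators themselves were close to equal, with log2 ratios of -0.20 for Nfe2l2, which encodes NRF2, and -0.14 for Keap1.

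Leukocyte-like cells held 2636 CPM of Hmox1 in set 2 against 166 in set 1, and 674 against 141 CPM of Slc7a11. The leukocyte-like class was made up of unlike clusters in the sets, and the part of this in these values was not tested. In fibroblast-like cells Hmox1 was 1315 against 1451 CPM. Among the members themselves, basal-like cells had Gclc, Gpx3 (log2 ratio 1.55, 37.1 against 12.6 CPM) and Gstm1 (1.21, 167 against 72.5 CPM) past 2-fold higher in set 2 and Gsto1 past 2-fold lower, 4 of 9. Gstp1 at 0.86 and Nqo1 at 0.66 were short of it. When only EGFP-high basal-like cells were compared, the log2 ratio was 2.28 for Gclc, 1.62 for Gstm1 and 1.30 for Nqo1, and -2.79 for Gsto1 and -1.90 for Gsta3, beside 4.23% of all genes higher and 4.91% lower.

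**Figure D5:**
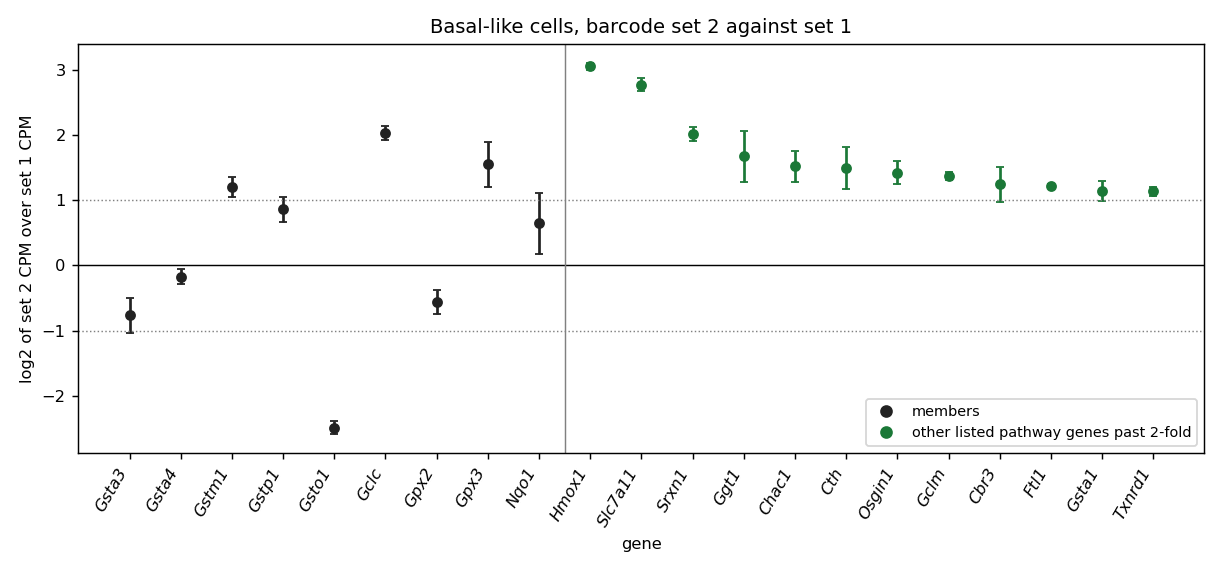
Log2 ratio of set 2 to set 1 in basal-like cells for the 9 members with at least 10 CPM and for the 12 further pathway genes past 2-fold, with 95% counting intervals. Hmox1 (3.05), Slc7a11 (2.77) and Gclc (2.03) lie highest, and Gsto1 (-2.49) lowest.

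By EGFP in luminal-like cells, 6 of 60 further pathway genes with at least 10 CPM were past 2-fold higher and 2 lower in set 1, and 14 higher and 10 lower of 55 in set 2. The shares of all genes were 3.33% higher and 1.49% lower in set 1, and 11.9% and 15.7% in set 2. In all, 4 were past 2-fold in the same direction in both sets, a count for which no share of all genes was computed. Txnip, an inhibitor of thioredoxin, was higher at high EGFP, at 121 against 26.8 CPM in set 1 and 85.5 against 7.61 CPM in set 2. Mgst1, a membrane-bound glutathione transferase and peroxidase, was higher at 618 against 283 CPM and 316 against 26.9 CPM. Srxn1 was lower, at 68.8 against 164 CPM and 17.9 against 181 CPM. Prdx6, a peroxiredoxin that uses glutathione, was lower at 4616 against 9475 CPM and 1279 against 9439 CPM. Within Tgm4/Ren1 cells of set 2 the lower levels were not past 2-fold, with log2 ratios of -0.63 for Srxn1 and -0.31 for Prdx6, while Txnip at 2.42 and Mgst1 at 1.65 remained past it. Among other glutathione transferases, the list of Mgst1, 0 of 9 (Msmb/Wfdc3), 0 of 7 (Krt6a/Clu) and 2 of 10 (Ltf/Msln) were past 2-fold higher in set 1. Among thioredoxin and glutaredoxin genes, the list of Txnip, these were 1 of 10, 0 of 11 and 0 of 10. The shares of all genes past 2-fold higher were 2.5%, 1.26% and 1.73%. In basal-like cells the only pathway gene past 2-fold in the same direction in both sets was Ggt1, which splits extracellular glutathione. It stood at 16.9 against 4.86 CPM in set 1 and 44.5 against 12.5 CPM in set 2.

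Between fibroblast-like and luminal-like cells, 4 members were past 2-fold higher and 4 lower of 8 in fibroblast-like cells of set 1, and 5 higher and 2 lower of 8 in those of set 2. Higher in both sets were Gstm1, Gpx3, Gclc and Gstp1, whose log2 ratios ran from 1.03 to 1.99 (set 1) and from 1.72 to 3.92 (set 2). Of all genes, 20.8% were higher and 22.0% lower in set 1, and 22.0% higher and 14.5% lower in set 2. Gsto1 changed side, with -1.14 in set 1 and 2.24 in set 2, where luminal-like cells held 343 and 13.2 CPM. Gsta3 was lower in fibroblast-like cells, with -2.47 and -1.46, and stood at 17.5 CPM in set 1 and 137 CPM in set 2. EGFP in the same cells stood at 27.0 and 2504 CPM and Krt8 at 560 and 2008 CPM, and their part in the Gsta3 value was not tested.

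Over the 24 groups the members formed patterns that overlapped in part. Correlations of log2(CPM + 10) are given as descriptions, since groups of 1 set share a library and its free RNA. Gsta4 and Gpx2 (r = 0.85), Gsto1 and Gpx2 (0.84), and Gclc and Nqo1 (0.83) were the most alike, and Gsto1 and Gulo ran opposite (-0.79). The genes of the whole table closest to Gsta3 were the transgene feature ARQ (0.83) and Smim5 (0.83). Gulo was followed by Nkain4 (0.98) and Clic6 (0.97), and Gsto1 by Gm20186 (0.89) and the basal keratin Krt15 (0.89). Krt15 (0.92) and Fgfbp1 (0.94) were also closest to Gpx2, while Gsta4 went with Fhdc1 (0.93) and Mpzl2 (0.93). For Gclc they were Esd (0.86) and Sesn2 (0.83), for Gstp1 Sesn2 (0.85) and Efnb1 (0.84), and for Nqo1 Pdgfa (0.88) and Esd (0.87). Gpx3 was nearest to Cry2 (0.83) and Pofut1 (0.74) and Gstm1 to Errfi1 (0.77) and Cry2 (0.77).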

How the data were processed

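The single-cell data were made by the authors from droplet 3′ libraries (10x Genomics, v2 chemistry), with Cell Ranger 3.1.0 and mm10 per the submitters' processing notes. The authors' table held natural log values of 1 plus the UMIs of a gene per 10000 UMIs of its cell, from which whole UMI counts were recovered and summed per group and set as CPM. Scrublet's automatic limits called 0 doublets, so a limit of 0.25 set after the scores were seen removed 330 cells (scanpy 1.11.5, Python 3.11.15). Clusters came from Seurat 5.3.0 (R 4.3.3) at resolution 0.5 on the integrated sets, with 97 genes, the members and pathway lists included, kept out of the features. Classes were named from marker lists. Totals were 134850345 UMIs in set 1 and 187280119 in set 2. Log2 ratios against a sum of 0 used a floor of 3 UMIs. Scripts were tested on simulated data.

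Members and lists were chosen with earlier results of these data known. Genes named beside the members were pathway genes past 2-fold in the same direction by EGFP in both sets, and the 2 genes most correlated with each member; others are marked. Alternatives to the split, scaling, doublets, depth, clustering and thinning were tried. Positions and promoters are from RefSeq, GRCm38.p6.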

Additional observations from a re-analysis of the deposited data

Results flagged for a closer look

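Some members had ratios of opposite sign in the 2 sets under the same comparison. By EGFP in luminal-like cells, the log2 ratio of Gstp1 was 1.24 in set 1 and -1.56 in set 2, and that of Gsto1 was 1.57 and -2.26. In basal-like cells the log2 ratio of Gsto1 by EGFP was 0.20 in set 1 and -0.43 in set 2, both short of 2-fold. For luminal-like against basal-like cells, Gstm1 gave 0.19 in set 1 and -0.45 in set 2, also short of 2-fold. Within Tgm4/Ren1 cells of set 2, which made up nearly all its EGFP-low luminal-like cells, the log2 ratio by EGFP was 0.20 for Gstp1 and -0.29 (-0.69 to 0.11) for Gsto1, so the set 2 values of the pooled cells were not present within that subgroup. With 1 library behind each value, these differences between the sets were not tested.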

How the results depend on the processing

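No paired analysis was possible because no result came from a test and there was 1 library on each side. Over all alternatives, 273 of 285 values of ratios past 2-fold stayed past it. The number of members past 2-fold by EGFP in basal-like cells of set 2 went from 0 to 1 when every cell weighed the same, to 1 with EGFP-high above the 99th percentile, and to 2 when cells were split on the transgene feature (Gsta4 1.005, Gpx3 1.51). Thinned to 6000 UMIs, the share of luminal-like cells with a Gsta3 UMI was 20.6% in set 1 and 59.2% in set 2, that with a Gulo UMI 42.5% in set 2, and that of basal-like cells with a Gsto1 UMI 97.8% and 66.5%. The sign of Nqo1 by EGFP in luminal-like cells of set 1 turned from 1.22 to -1.09 without integration, at under 10 CPM. Gsta4 fell short of 2-fold between the sets in EGFP-high luminal-like cells (-0.98 with doublets kept, -0.92 at resolution 1, -0.97 with every cell weighing the same), in basal-like cells of set 1 by EGFP (-0.98 at resolution 1, -0.72 on the transgene split) and in luminal-like against basal-like cells of set 1 (-0.85 with all 10 non-basal epithelial clusters). Gstp1 did so without integration, by EGFP in luminal-like cells of set 1 (0.70) and between the sets (-0.97), and Gpx3 by EGFP in basal-like cells of set 1 low in Krt8 (0.86). By EGFP in luminal-like cells of set 2, Gpx3 went to 1.46 on the transgene split and 0.97 with all 10 clusters. Gsta3 between the sets went from 0.51 to 2.27 without integration and to -0.12 with all 10 clusters. The causes were not tested. The uses of all 10 clusters and of basal-like cells low in Krt8 were chosen after seeing the data. Basal-like cells of set 2 low in Krt8 were not compared by EGFP, since only 61 and 41 cells were left. At 57 and 198 UMIs over all luminal-like cells of set 1 and set 2, Nqo1 stayed under the minimum level for a call there.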
